A study of Cricetiscus sungorus with 216 samples.

Results

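Thyroid hormone acts in the seasonal hypothalamus through a short chain of proteins, and the transcripts of 7 of them were followed here in male Djungarian hamsters. The 7 are Dio2, Dio3, Slco1c1, Ttr, Crym, Thra and Thrb, chosen by name from the 32078 gene symbols of the study's 4 tables. Each table holds 54 libraries of the same 54 hamsters, from the mediobasal hypothalamus (MBH), the dorsomedial hypothalamus (DMH), the paraventricular nucleus (PVN) and the pituitary gland. The MBH table lists all 7 members among 20156 gene symbols. The DMH table (21821 symbols) and the PVN table (18960 symbols) each list 6 members, without Dio3, and the pituitary table (22482 symbols) has 5, without Slco1c1 and Ttr.

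The hamsters were adult males of 3 to 8 months. A group of 6 stayed in long photoperiod (LP, 16 h of light a day, LD in the sample labels), and 8 groups of 6 were moved to short photoperiod (SP, 8 h of light, SD in the labels) for 4, 8, 12, 16, 20, 24, 28 or 32 weeks. The labels tell the groups apart by photoperiod and its duration only. The 3 brain regions are bilateral punches from frozen brain sections, so each library mixes the cell types of a punch, and fewer cells of a type cannot be told apart from less RNA per cell. RNA was sequenced as nanopore cDNA, 1 library per hamster and tissue. By the study's methods the hamster reads were aligned to the mouse genome, build GRCm39, although 0 isoform identifiers of the PVN table occur in the others. The deposited values are estimated counts per isoform, which were summed over the isoform rows of each symbol. Levels are given in CPM, counts scaled to a library total of 1000000 after TMM, as mean ± standard deviation (SD) over 6 hamsters unless stated.

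As background, thyroxine is a prohormone that the type-2 deiodinase, encoded by Dio2, converts to the active hormone triiodothyronine, while the type-3 deiodinase, encoded by Dio3, inactivates both. Slco1c1 encodes a transporter that carries thyroxine across the blood-brain barrier, Ttr encodes transthyretin, which carries it in blood and cerebrospinal fluid, and Crym encodes mu-crystallin, which binds triiodothyronine in the cytosol. Thra and Thrb encode the nuclear receptors. In seasonal mammals both deiodinases are known from tanycytes, the glial cells that line the floor of the third ventricle inside the MBH, where thyrotropin from the pars tuberalis drives Dio2 in long days.

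Library totals had a median of 1422834 counts in the MBH (5996 to 13208361), 1626423.5 in the DMH (149289 to 9084072), 168902.5 in the PVN (159 to 998245) and 81120 in the pituitary gland (29219 to 523544). Below 10000 counts were 1 MBH library of 20 weeks SP and 2 PVN libraries, of LP and 16 weeks SP. The TMM factors ran from 0.187 to 4.45 in the MBH and from 0.0850 to 7.90 in the DMH, and 8 DMH, 1 PVN and 2 pituitary libraries held no count of Gapdh, a transcript of nearly all cells. Summed over 6 marker genes of the dorsomedial nucleus, the median level was 1.04 CPM in the DMH and 74.2 CPM in the MBH. These CPM come from separate scalings of the tables. Gapdh was lower in the DMH too, with a median of 0.0106% of a library's counts against 0.104% in the MBH. The dorsomedial marker sums alone therefore cannot decide whether the DMH libraries match their label. Of 6 markers of the MBH, Pomc, Agrp, Npy and Tac2 held 698, 69, 100 and 415 counts in the DMH. In the MBH they held 13393, 4295, 10661 and 1128. Ghrh and Kiss1, with 22 and 338 counts in the MBH, were not listed in the DMH. Gapdh, on isoforms listed in both tables, held 35193 counts in the DMH and 99573 in the MBH. The match of libraries to label was not tested. Of 6 markers of the paraventricular nucleus only 3 were listed in the PVN table, with Trh and without Avp, Oxt and Crh. In the MBH, 7 listed pituitary markers summed to a median of 1490 CPM in LP and of 160.8 to 376 CPM at the SP weeks. Most counts of that sum were of Cga, Pomc and Tshb, and Pomc is also on the list of MBH markers.

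The tests were edgeR quasi-likelihood fits over the 9 groups (an F-test), in 5 contrasts of pooled weeks (4 to 8 weeks with 12 hamsters, 12 to 20 weeks with 18 and 24 to 32 weeks with 18, against LP and each against the one before) and at each of 8 weeks against LP, with an adjusted p below 0.1 as the call. In the MBH, 1 of 7 members, Dio3, was called over the 9 groups, where 0.442% of all 20156 symbols were called. In the DMH the call fell on Thrb, 1 of 6 members, against 4.62% of all symbols. It also fell on Thrb in the pituitary gland, 1 of 5 against 9.56% of all symbols, and on 0 of 6 in the PVN (0 also by DESeq2 and the edgeR 4 method), against 0.0158%. No member was called in a contrast of pooled weeks, where 0.288% (MBH), 1.43% (DMH), 0.0211% (PVN) and 1.21% (pituitary gland) of all symbols were called in at least 1 contrast. None was called at a single week either, where the shares were 0.0248% (MBH), 0.0321% (DMH), 0.0% (PVN) and 0.00445% (pituitary gland). DESeq2 called no member in any of these contrasts, and the edgeR 4 method called 1, Thrb in the pituitary gland. At an unadjusted p below 0.05 in edgeR, at least 1 of the 5 contrasts of pooled weeks held Dio2 and Dio3 in the MBH (15.2% of all symbols), Crym, Slco1c1, Thrb and Ttr in the DMH (22.6%), Crym and Thrb in the PVN (15%), and Crym and Thrb in the pituitary gland (20.1%). At least 1 of the 8 single weeks held Dio3 and Ttr in the MBH (19.3% of all symbols), the same 4 members in the DMH (30.7%), Crym and Ttr in the PVN (17.5%), and Crym and Thrb in the pituitary gland (25.5%). Over the 9 PVN groups it was Crym alone (6.15% of all symbols).

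Dio3 was counted in the MBH at 4 to 16 weeks SP only. It was found in 4 hamsters each at 4 and 8 weeks SP, 3 at 12 weeks and 2 at 16 weeks, and in none of 6 hamsters in LP or at 20, 24, 28 and 32 weeks. The mean was 0.729 ± 0.683 CPM in the hamsters of 4 weeks and 1.72 ± 2.06 CPM in those of 8 weeks. It was lower after that, with 0.532 ± 0.748 CPM (12 weeks) and 0.383 ± 0.669 CPM (16 weeks). The highest library, at 8 weeks, held 10 counts (5.34 CPM), and every SP group overlapped LP because each kept hamsters at 0. Pooled, 31 counts at 4 to 8 weeks gave 5.00-fold the level that 3 counts would give in LP, and 16.2-fold that at 24 to 32 weeks. These folds leave out the spread between hamsters and the counting error of the 31 counts. The 95% limits from counting error alone were 0.969 to 2.02 CPM at 4 to 8 weeks. They reached up to 0.351 CPM in LP and 0.108 CPM at 24 to 32 weeks. The 7 counts at 12 to 20 weeks gave 2.74-fold the level of 3 counts at 24 to 32 weeks. Their limits, 0.0967 to 0.495 CPM, overlapped those of 24 to 32 weeks. No fold of the 7 counts against LP can be given, since they lie under the 0.285 CPM that 0 counts in LP allow.

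For Dio3 the adjusted p over the 9 groups was 0.0344 (edgeR). This call was lost with each replicate number left out in turn (adjusted p 0.101 to 0.326), with DESeq2 and with a filter on low counts that leaves Dio3 untested. In the contrasts, 12 to 20 weeks against 4 to 8 weeks had a log2 fold change of -2.38 (SE 0.66, adjusted p = 0.509 in edgeR). A permutation test of mean CPM with 100000 permutations gave p = 0.0158 for that difference, and p = 0.0448 for 24 to 32 against 12 to 20 weeks, while 4 to 8 weeks against LP had p = 0.0644 (exact, all tests 2-sided). These are 3 of 35 such tests on MBH members. Outside the MBH, Dio3 held 2 counts in all, in 2 of 54 pituitary libraries, at 8 and 28 weeks SP.

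**Figure D1:**
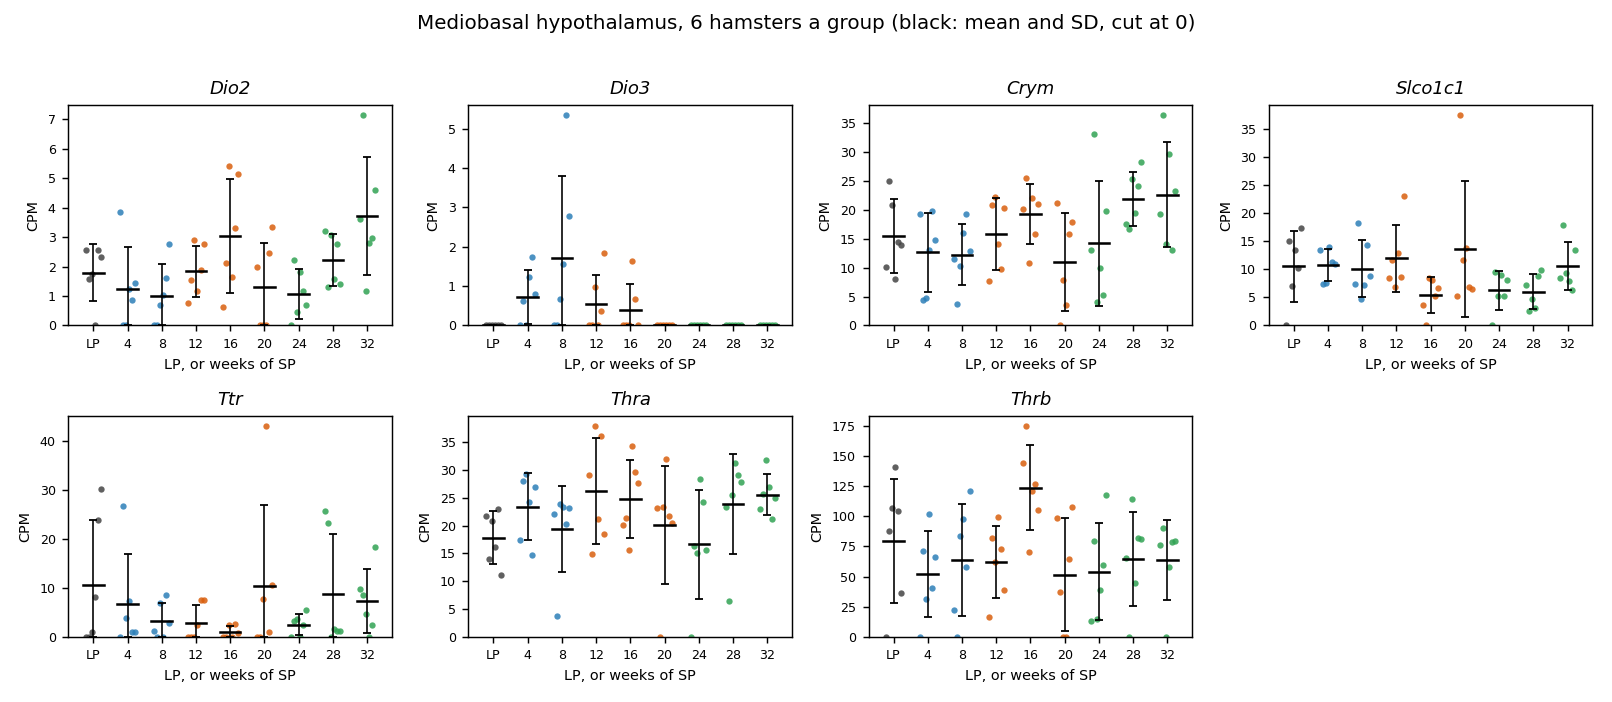
CPM of the 7 members in the MBH, by LP and weeks of SP on the horizontal axis. Points are single hamsters, 6 a group, and bars the mean and SD, drawn no lower than 0. Dio3 is above 0 at 4 to 16 weeks only, and the other members overlap LP at every SP week.

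Dio2, the activating enzyme, was counted in 45 of 54 MBH libraries, with 202 counts in all and at most 17 in a library. In LP the lowest, median and highest hamster had 0, 2.03 and 2.56 CPM. The median was lower at 4 weeks (1.05, from 0 to 3.85) and 8 weeks (0.858, from 0 to 2.77). It was 1.70 CPM at 12 weeks (0.765 to 2.91) and 2.72 CPM at 16 weeks (0.610 to 5.41). The medians were thus lowest at 8 weeks and passed that of LP at 16 weeks, with all groups overlapping LP. At 20 and 24 weeks the medians were 0.992 CPM (0 to 3.35) and 0.933 CPM (0 to 2.23). At 28 weeks it was 2.15 CPM (1.29 to 3.21), and 32 weeks held the highest median, 3.31 CPM (1.18 to 7.14).

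None of this passed the test over the 9 groups (adjusted p = 0.938 in edgeR). The contrasts of pooled weeks against LP were -0.65 (SE 0.57) at 4 to 8 weeks, 0.24 (SE 0.53) at 12 to 20 weeks and 0.24 (SE 0.54) at 24 to 32 weeks, all on the log2 scale and all smaller than 2 SE. The step from 4 to 8 weeks to 12 to 20 weeks was 0.89 (SE 0.44, adjusted p = 1 in edgeR). At 32 weeks the mean was 3.72 ± 2.01 CPM against 1.79 ± 0.968 in LP (exact permutation test, p = 0.0498, and 0.0671 on log2 CPM), 1 of 56 weekly tests on MBH members, of which 2 had p below 0.05. The interval of 2 SE around the contrast at 4 to 8 weeks spans both a fall and a rise, and no change of Dio2 in the opposite sense to Dio3 was detected. In the other tissues Dio2 was at the edge of detection, with 12 counts in the DMH, 4 in the PVN and 12 in the pituitary gland and never more than 1 count in a library.

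The summed level of 10 tanycyte markers in the MBH had a median of 275 CPM in LP (215 to 339) and medians of 91.9 to 177.7 CPM at the SP weeks. Vim (8230 counts) and Col25a1 (6383) held the most counts, and no other marker held more than 1321 (Gpr50), so the sum mainly follows Vim and Col25a1. Of these markers, only Gpr50 and Vim were called in a contrast of pooled weeks. The part of the tanycyte markers in the levels of Dio2, Dio3 and Crym, which tanycytes are known to express, was not tested.

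Slco1c1, the thyroxine transporter, was counted in 51 of 54 MBH libraries. Its means at 4, 8, 12 and 32 weeks were near that of LP, and those at 16, 24 and 28 weeks were lower. The LP mean was 10.5 ± 6.33 CPM, from 0 to 17.4, and the SP means were 10.8 ± 2.79 CPM at 4 weeks, 10.1 ± 5.11 CPM at 8 weeks and 11.9 ± 5.93 CPM at 12 weeks. The lowest mean, 5.38 ± 3.19 CPM, came at 16 weeks, where the highest hamster had 8.42 CPM. At 20 weeks the mean of 13.6 ± 12.1 CPM rested on the library of 5996 counts, in which 1 count is 37.5 CPM. At 24, 28 and 32 weeks the means were 6.23 ± 3.55, 6.04 ± 3.05 and 10.5 ± 4.31 CPM. Over the 9 groups the adjusted p was 1 (edgeR). Of 8 endothelial markers the summed medians in the MBH lay between 28.5 and 38.3 CPM in all groups.

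In the DMH, Slco1c1 was sparser, with 262 counts in 25 of 54 libraries. The LP mean was 1.48 ± 1.42 CPM, with a median of 1.36 and a highest hamster of 3.58. At 20 weeks all 6 hamsters were at 0, in libraries of unequal scaled depth. There 1 count was 0.146 CPM in hamster 6 but 4.19 CPM in hamster 3, above the highest LP hamster. The 0 of hamster 3 thus does not show a lower level. Pooled over hamsters, LP was 5.71-fold the level that 3 counts would give at 20 weeks, a bound set mostly by the deeper libraries. At 32 weeks 1 hamster held 1 count, and at 4 weeks 2 hamsters held 9 counts. Against LP the pooled contrasts were -1.31 (SE 0.73) at 4 to 8 weeks, -2.37 (SE 0.79, adjusted p = 0.178 in edgeR) at 12 to 20 weeks and -1.45 (SE 0.72) at 24 to 32 weeks. In the same fit the median of all DMH symbols was -0.17, -0.26 and -0.26 in these contrasts. The 7 endothelial markers listed in the DMH summed to a median of 8.13 CPM in LP, of 3.73, 3.47 and 2.94 CPM at 4, 20 and 32 weeks, and of 5.50 to 8.32 CPM at the other weeks. Their part in the DMH levels of Slco1c1 was not tested. The F-test over the 9 DMH groups gave Slco1c1 an adjusted p of 0.179 (edgeR). In the PVN the transporter was counted in 45 of 54 libraries, with means from 21.3 CPM at 16 weeks to 71.5 CPM at 32 weeks and 40.7 ± 44.5 in LP, and no test passed.

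Ttr varied widely between hamsters of a group. In the MBH it was counted in 37 of 54 libraries, and its LP hamsters ran from 0 to 30.1 CPM with a median of 4.47. The medians at 4, 8, 12 and 16 weeks were 2.36, 1.91, 1.18 and 0.395 CPM, and at 16 weeks the highest hamster had 2.64 CPM. At 20 weeks the median was 4.39 CPM, with 1 hamster at 43, and at 24, 28 and 32 weeks the medians were 2.78, 1.33 and 6.64 CPM. The groups overlapped in every case. The contrast of 12 to 20 weeks with LP was -1.63 (SE 0.85, adjusted p = 0.849 in edgeR) and that of 16 weeks -3.23 (SE 1.26, adjusted p = 0.872). Transthyretin is a main product of the choroid plexus, and 10 choroid plexus markers, led by Folr1 (counted in 46 libraries), summed to a median of 70.2 CPM in LP and of 35.6 to 71.7 CPM at the SP weeks in the MBH. Folr1, Prlr and Calml4 held 3191, 1689 and 997 counts, and no other of these markers more than 135 (Aqp1), so the sum mainly follows Folr1, Prlr and Calml4. The part of these markers in the Ttr values was not tested.

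In the DMH, Ttr was at 0 in all 6 hamsters of 20 weeks and reached 44.1 CPM in 1 hamster at 24 weeks. In hamster 3 of 20 weeks 1 count was 4.19 CPM, above the LP median of 0.911 CPM, so its 0 does not show a lower level. In LP 1 hamster held 190 of the 201 summed counts. The choroid plexus markers summed to a median of 2.03 CPM in the LP libraries of the DMH, of 0 CPM at 20 and 32 weeks and of 0.749 to 3.39 CPM at the other weeks. Prlr (327), Calml4 (291) and Folr1 (239) held the most of their DMH counts. The part of these markers in Ttr was not tested there either. The contrast of 12 to 20 weeks with LP was -2.66 (adjusted p = 0.499 in edgeR), and -0.84 without the hamsters numbered 4, among which is that LP hamster. The step from 12 to 20 weeks to 24 to 32 weeks was 3.09 (SE 1.19, adjusted p = 0.749 in edgeR), and 1.65 without the hamsters numbered 6. In the PVN, the mean was 3.65 ± 4.30 CPM in LP and 21.3 ± 19.2 CPM at 8 weeks SP (exact permutation test, p = 0.0390), 1 of 48 weekly tests on PVN members, of which 4 had p below 0.05. The LP group of that test includes the library of 159 counts, in which Ttr was at 0. The highest Ttr library of the PVN, with 264.6 CPM, was a hamster of 4 weeks SP. The MBH and DMH tables hold 2 Ttr rows, and they carried the same value in 33 of the 37 MBH and 19 of the 23 DMH libraries with a count, so that the summed CPM is not a number of reads.

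Crym, the cytosolic hormone-binding protein, was counted in 53 of 54 MBH libraries. Its LP mean was 15.4 ± 6.4 CPM, from 8.06 to 24.9. The means at 4, 8, 12, 16 and 20 weeks were 12.7 ± 6.82, 12.3 ± 5.32, 15.9 ± 6.24, 19.2 ± 5.19 and 11 ± 8.52 CPM. The highest means came late, 22 ± 4.67 CPM at 28 weeks (16.8 to 28.3) and 22.7 ± 9.09 CPM at 32 weeks (13.1 to 36.4), after 14.2 ± 10.9 CPM at 24 weeks. These differences stayed within the spread of the hamsters, with a contrast of 24 to 32 weeks against LP of 0.30 (SE 0.34), an adjusted p of 1 for it and over the 9 groups (edgeR), and an exact permutation p of 0.0714 at 28 weeks.

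In the pituitary gland and the PVN, Crym had its lowest mean in LP. In the pituitary gland it was at 0 in all 6 LP hamsters and counted in 4, 2, 3, 4, 4, 2, 3 and 3 hamsters at the 8 SP weeks in order, 41 counts in all with at most 4 in a library. Against the level that 3 counts would give in LP, the pooled level was 1.58-fold at 4 to 8 weeks, 1.71-fold at 12 to 20 weeks and 1.06-fold at 24 to 32 weeks. The 95% limits from counting error alone overlapped LP in each case. They were 3.95 to 16.4, 5.74 to 14.5 and 3.01 to 10.2 CPM, and up to 6.75 CPM in LP. In edgeR the contrasts of these 3 phases with LP had adjusted p of 0.446, 0.406 and 0.581. The permutation test of mean CPM gave p = 0.0976, 0.0255 and 0.135 (exact), which are 3 of 25 such tests on pituitary members. The F-test over the 9 pituitary groups did not pass (Crym adjusted p = 0.747 in edgeR).

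In the PVN, Crym was counted in 1 LP hamster, with 2 counts, and the LP mean was 0.412 ± 1.01 CPM. The means of 12, 20 and 28 weeks were 6.97 ± 4.65, 7.92 ± 6.76 and 17.4 ± 19.2 CPM, each with 5 of 6 hamsters above 0 (exact permutation test, p = 0.0152 each). At 8 and 16 weeks 2 hamsters each held a count and the means were 4.00 ± 6.50 and 1.31 ± 2.21 CPM. In edgeR, 24 to 32 weeks against LP gave 1.90 (SE 0.94, adjusted p = 1). The LP group of the PVN includes the library of 159 counts, which entered the permutation tests as a 0. Without the 2 libraries below 10000 counts the contrast of 24 to 32 weeks was 1.89 (adjusted p = 1). In the DMH, Crym held 41 counts in 15 libraries, and 11 of the 12 LP counts lay in 1 hamster. The contrast at 4 to 8 weeks was -1.75 (SE 0.79, adjusted p = 0.456 in edgeR), and -0.090 without the hamsters numbered 1, among which is that LP hamster.

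**Figure D2:**
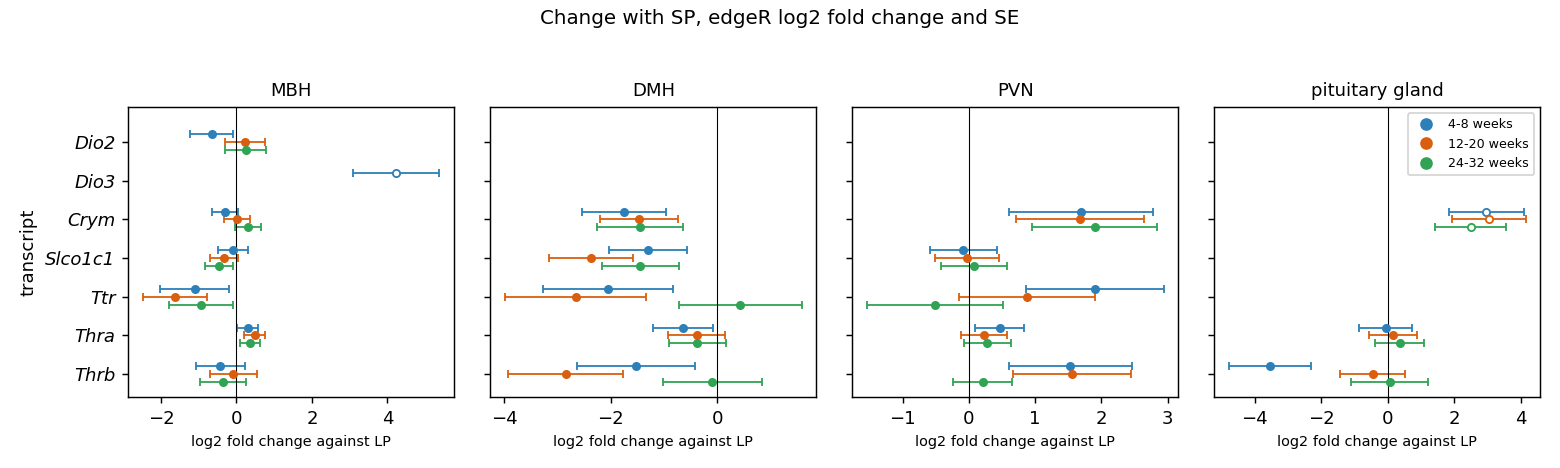
Log2 fold change against LP and its SE (edgeR) on the horizontal axis for each member in the 4 tissues, at 4 to 8 (blue), 12 to 20 (orange) and 24 to 32 weeks (green) of SP. Open points have a group with 0 counts, so that their value depends on the prior count, and members with fewer than 20 counts in a table or without a finite SE are not drawn. The horizontal scale differs between tissues, and no point passed an adjusted p of 0.1.

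Thra, the main thyroid hormone receptor of the brain, was counted in 52 of 54 MBH libraries, with a mean of 17.8 ± 4.78 CPM in LP (11 to 23). The SP means lay between 16.6 ± 9.79 CPM at 24 weeks and 26.3 ± 9.54 CPM at 12 weeks. At 32 weeks the 6 hamsters ran from 21.2 to 31.8 CPM, with a mean of 25.6 ± 3.67, and overlapped LP narrowly (exact permutation test, p = 0.0108, the other of the 2 MBH weekly tests below 0.05). The contrasts of pooled weeks were 0.30 (SE 0.28), 0.48 (SE 0.27, adjusted p = 0.849 in edgeR) and 0.35 (SE 0.27), and over the 9 groups the adjusted p was 1. In the DMH the Thra means ran from 2.16 ± 1.34 to 4.18 ± 4.11 CPM against 3.74 ± 1.94 in LP, also with an adjusted p of 1. Pooled over libraries, the PVN held 115 CPM of Thra in LP and 128, 116 and 118 CPM in the 3 SP phases. The LP mean of the PVN, 74.6 ± 57.3 CPM, includes the library of 159 counts, in which all 6 members were at 0, and the SP means of the PVN ran from 91.8 to 133 CPM. The pituitary means at the SP weeks ran from 21.7 to 35 CPM against 25.5 ± 22.2 in LP.

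The 3 Thra isoform rows of the MBH took similar shares in LP and SP. NM_001313983.1 took 58.1% of the counts, and the other rows 26.6% and 15.3%. Its share was 59.8% in LP, 59.5% at 4 to 8 weeks, 59.7% at 12 to 20 weeks and 55.3% at 24 to 32 weeks. In the DMH the 3 rows took 52.3%, 30.5% and 17.2%. These shares are of pooled estimated counts, with no test, and the estimation splits reads that fit more than 1 row.

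Thrb needs its isoform rows stated before its levels. The MBH, DMH and pituitary tables list it in 21 rows, and the rows above 0 carried the same value in 15 of the 19 DMH and 19 of the 25 pituitary libraries with a count. Where every row has the value 1, the sum is 21 for what the highest row gives as 1. In the MBH the sum over rows was 7295 counts and the highest row, XM_006517966.4, 368.487. In the DMH the sum was 610 against 34 for the highest row, with at most 4 in a library, and in the pituitary gland 501 against 36, also with at most 4.

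**Figure D3:**
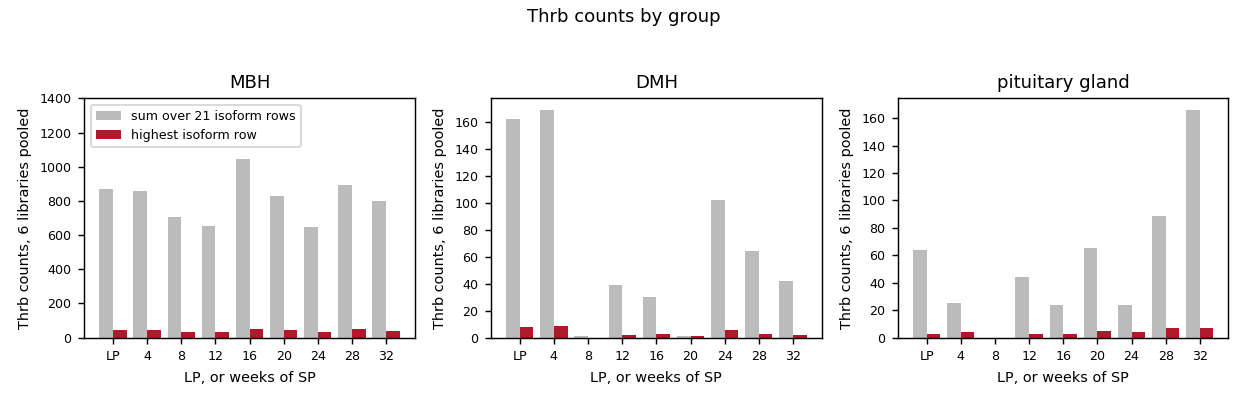
Thrb estimated counts, pooled over the 6 libraries of each group, as the sum of the 21 isoform rows (grey) and in the highest single row (red), by LP and weeks of SP. The vertical scale differs between tissues. In the DMH and the pituitary gland no group's highest row holds more than 9 counts.

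In the MBH the summed Thrb level was 79.6 ± 51.8 CPM in LP and highest at 16 weeks SP, with 124 ± 35.3 CPM (70.4 to 174.8). The other SP means lay between 51.4 ± 47 CPM at 20 weeks and 64.6 ± 39 CPM at 28 weeks, with 7 hamsters at 0 over all groups, and the 9 groups did not differ beyond the spread (adjusted p = 1 in edgeR). In the DMH the mean was 2.87 ± 3.21 CPM in LP, with 3 of 6 hamsters above 0. At 4 weeks it was 13.3 ± 24.4 CPM, where 1 hamster reached 62.0 CPM, from 42 counts, against a median of 2.44, while 2 others held 63 counts each at 4.58 and 12.9 CPM. At 8, 12, 16 and 20 weeks the means were 0.0528, 0.555, 0.399 and 0.698 CPM, with 1, 1, 2 and 1 hamsters above 0. At 24, 28 and 32 weeks they were 0.961 ± 1.38, 7.42 ± 16.8 and 2.52 ± 6.16 CPM, the middle one with 1 hamster at 41.6 CPM from 21 counts and another at 2.85 CPM from 42. The DMH level thus ran low between 8 and 20 weeks, in counts that a few hamsters supplied.

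For Thrb in the DMH the adjusted p over the 9 groups was 0.0324 (edgeR). With the highest row in place of the sum the adjusted p was 0.700, with DESeq2 1, with the low-count filter 0.537, with the edgeR 4 method 0.244 and without the hamsters numbered 3 0.161. On library totals alone, without TMM, it was 0.128. The contrast of 12 to 20 weeks with LP was -2.85 (SE 1.08, adjusted p = 0.282), with an exact permutation p of 0.0172 on mean CPM, 1 of 30 such tests on DMH members, and it was -1.05 with the highest row. The step back at 24 to 32 weeks was 2.76 (SE 0.94, adjusted p = 0.699). It was 0.64 with the highest row and ran from 0.31 without the hamsters numbered 4 to 4.2 without those numbered 3. By highest row the DMH held 8 counts in LP, 9 at 4 weeks, 0 at 8 weeks, 2, 3 and 1 at 12, 16 and 20 weeks, and 6, 3 and 2 at 24, 28 and 32 weeks.

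In the pituitary gland Thrb was at 0 in all 6 hamsters of 8 weeks SP, at 72.5 ± 105 CPM in LP and at 207 ± 246.8 CPM at 32 weeks. The hamsters of 32 weeks ran from 0 to 593 CPM with a median of 136, and those of LP from 0 to 213.4 with a median of 9.94. The F-test gave an adjusted p of 0.0973 (edgeR), the contrast of 4 to 8 weeks with LP -3.54 (SE 1.22, adjusted p = 0.334) and the step to 12 to 20 weeks 3.09 (SE 1.09, adjusted p = 0.323). With the highest row in place of the sum these contrasts were -1.02 and 0.97. The call over the groups was lost with the highest row (adjusted p 0.918), with DESeq2, with the filter, without the hamsters numbered 6 (0.214) without the libraries that lack Gapdh (0.129) and on library totals alone (0.142). In the highest row the pituitary gland held 3 counts in LP, 4 at 4 weeks, 0 at 8 weeks and 7 at both 28 and 32 weeks. In the PVN, where Thrb has 1 row, it held 26 counts in 18 libraries and at most 3 in a library, with 1 count in LP and 0 at 28 weeks.

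**Figure D4:**
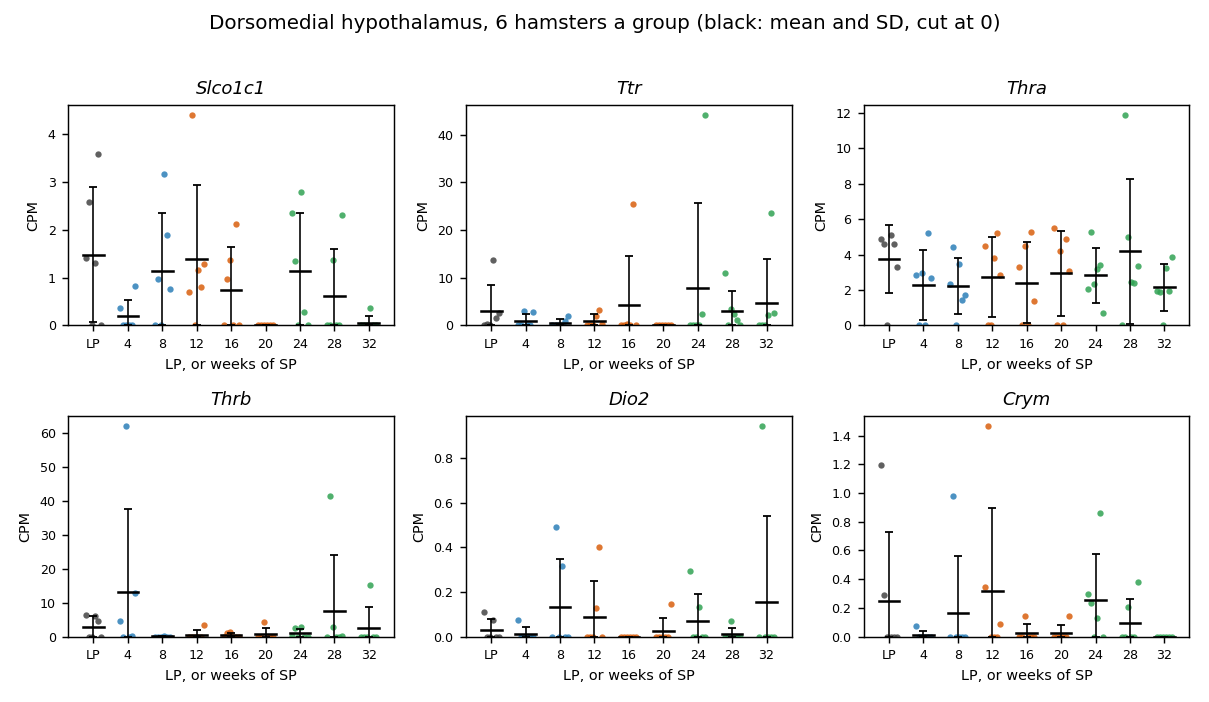
CPM of the 6 members listed in the DMH table, by LP and weeks of SP on the horizontal axis. Points are single hamsters, 6 a group, and bars the mean and SD, drawn no lower than 0. Slco1c1 and Ttr are at 0 in all 6 hamsters of 20 weeks, whose libraries differ in depth, and the highest Thrb points are single hamsters of 4 and 28 weeks.

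The same 54 hamsters gave both the MBH and the DMH, so the level of each member was compared between the regions within hamsters, on isoforms listed in both tables and with a joint TMM scaling that makes these CPM differ from those above. Of 6 members tested, 4 were called, all higher in the MBH, where 42% of all 17693 symbols were called and 39.2% were called as higher in the MBH. The median of all symbols was itself 0.56 higher in the MBH on the log2 scale, and Gapdh had a median of 458 CPM in the MBH and 254 in the DMH. A member's difference is therefore given beside this shift and relative to Gapdh and Actb.

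Crym had the largest difference of the 6. Its MBH level ran from 0 to 16.5 CPM with a median of 7.02, and its DMH level from 0 to 3.23 with a median of 0. It was higher in the MBH in 51 of 54 hamsters, by a log2 fold change of 4.30 (SE 0.31, adjusted p = 1.23e-18 in edgeR) or 19.6-fold, and per Gapdh by 3.85. Dio2 was higher in the MBH in 43 of 54 hamsters, with medians of 0.741 and 0 CPM and a log2 fold change of 2.34 (SE 0.35, adjusted p = 3.59e-07), 2.57 per Gapdh. Thrb was higher in 44 of 54 hamsters, with medians of 32.3 and 0 CPM and a log2 fold change of 4.12 (SE 0.55, adjusted p = 1.74e-08), which was 2.08 per Gapdh. On library totals alone, without TMM, the median of all symbols was 2.41 higher in the MBH, and Crym, Thrb and Dio2 lay 3.71, 4.45 and 1.16 above that median. Crym, Dio2 and Thrb thus exceeded the shift of all symbols by every reference used.

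Slco1c1 and Thra did not keep the same sign against all references. Slco1c1 was higher in the MBH in 44 of 54 hamsters by 1.13 (SE 0.31, adjusted p = 0.00245 in edgeR), 0.57 above the median of all symbols, but by 0.26 per Gapdh and by -0.12 per Actb. Without the hamsters numbered 6 its difference was 0.92 (adjusted p = 0.109). Thra, with medians of 9.85 and 7.73 CPM, differed by 0.43 (SE 0.22, adjusted p = 0.85), and was lower in the MBH relative to the median of all symbols (-0.14), to Gapdh (-0.090) and to Actb (-0.48). On library totals alone, Slco1c1 and Thra lay 0.89 and 0.24 above the median of all symbols. Ttr had a difference of -0.64 (SE 0.51, adjusted p = 0.366), with 24 hamsters higher in the MBH, 17 higher in the DMH and 13 equal. On library totals alone it turned to 1.68, which was -0.73 against the median of all symbols in that fit. A different change with SP between the 2 regions was called for no member, where 0.13% of all symbols were called in at least 1 of 3 phases. The lowest p was that of Thrb at 12 to 20 weeks (3.20, SE 1.32, adjusted p = 0.718), followed by Slco1c1 at the same weeks (2.44, SE 1.17, adjusted p = 0.875).

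**Figure D5:**
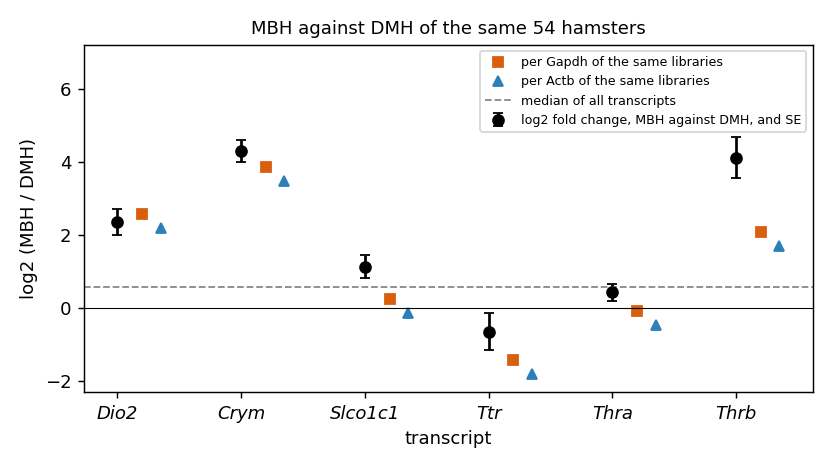
Log2 ratio of the MBH to the DMH in the same 54 hamsters for the 6 members listed in both tables. Black points are edgeR log2 fold changes with SE, squares and triangles the pooled ratio per Gapdh and per Actb counts, and the dashed line the median of all symbols (0.56). Dio2, Crym and Thrb lie above the dashed line by all 3 measures, and Slco1c1 and Thra fall to or below 0 per Actb.

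The genes around these members were read from lists of the pathway. Of 6 genes of the hormone axis, 2 were called in the MBH, Tshb and Cga, the subunits of thyrotropin, and both were lower than LP in all 3 pooled phases. For Cga the log2 fold changes were -3.35, -3.41 and -2.73 (adjusted p 0.0949, 0.0114 and 0.0863, edgeR). Both subunits are also among the pituitary markers whose sum was highest in the LP punches. Cga (17438 counts), Pomc (13393) and Tshb (4145) held the most counts of these markers, and no other more than 1315 (Lhb). The sum is therefore no measure of pituitary tissue apart from the subunits, and the part of such tissue in their levels was not tested. Over all 20156 MBH symbols the shares called were 0.442% over the groups and 0.288% in at least 1 contrast of pooled weeks. At such shares 0 calls in a list are no result about that list. None of 8 further transporters, 7 genes of selenoprotein synthesis (deiodinases are selenoproteins), 13 receptor partners and 10 hormone-responsive genes was called in the MBH, over the groups or in a contrast of pooled weeks. Among the well-counted ones were Slc3a2 (3844 counts), the heavy chain of an amino acid exchanger that also carries thyroid hormone, and Nrgn (3954 counts), a neuronal gene with a known response to thyroid hormone. The Nrgn contrast of 24 to 32 weeks with LP was 0.59 (SE 0.32, adjusted p = 0.895).

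In the DMH 3 of the 42 list genes in its table were called. Tshb and Slco1a4 passed over the 9 groups (adjusted p 0.0739 each in edgeR), as 4.62% of all symbols did, and Secisbp2, which reads the selenocysteine signal of deiodinase transcripts, had a log2 fold change of -3.12 (SE 0.84, adjusted p = 0.0758) at 12 to 20 weeks, where 1.43% of all symbols passed in at least 1 contrast of pooled weeks. In the PVN 0 of 40 were called, where 0.0158% of all symbols passed over the groups and 0.0211% in at least 1 contrast of pooled weeks. In the pituitary gland 3 of 42, Slc3a2, the receptor coactivator Ncoa3 and the hormone-responsive Abcd2, passed over the 9 groups (adjusted p 0.0244, 0.0316 and 0.0853), among the 9.56% of all symbols that did.

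The genes most alike to a member in their level over the 54 MBH libraries were named by Pearson's r of log2 CPM among the 8914 other symbols that passed the low-count filter. For Crym these were Cited1, Vim and Maged2 (r = 0.77, 0.73 and 0.71), of which Vim is 1 of the tanycyte markers above. For Thra they were Kif1b, Cyfip2 and Sptan1 (0.94, 0.93 and 0.92), for Thrb Rhot1, Pnpla2 and Ecel1 (0.71, 0.70 and 0.69) and for Ttr Fabp5, Itgav and Cyb5a (0.51, 0.48 and 0.46). For Slco1c1 they were Qpct, Actr1a and Arpc5 (0.73, 0.64 and 0.63). The points share library depth, and the rank correlations were lower for all of these but the 3 of Ttr, such as 0.42 for Cited1 and 0.56 for Kif1b. Without the library of 5996 counts, Crym's 3 became Cited1, Dapl1 and Fzd5, with r of 0.63, 0.61 and 0.60, and those of Slco1c1 became Smad4, Qpct and Nudt16l1, with r of 0.73, 0.71 and 0.70.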

How the data were processed

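RNA of the MBH, DMH, PVN and pituitary gland of 54 hamsters was sequenced as nanopore cDNA. The brain regions were prepared with a PCR-cDNA kit, and for the pituitary gland the labels name that kit and the study's methods a direct cDNA kit. The deposited values are expected counts, which the authors estimated per isoform with Salmon after Minimap2 alignment to the mouse genome, with transcripts of low count removed. Sequence that differs between hamster and mouse can lower a transcript's count. The PVN table shares 0 isoform identifiers with the others, no source used here gives its annotation, and its levels were not compared with other tables.

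Counts were summed over isoforms and rounded, 0 columns were left unmapped, and all gene symbols were tested in edgeR 4.0.16 (R 4.3.3), in its older quasi-likelihood form, after TMM, with Benjamini-Hochberg adjustment over all symbols and a threshold of 0.1. The groups were fitted together without covariates. MBH and DMH were compared with hamster as a block. Single members were also compared by 2-sided permutation tests (numpy 2.4.6), which for 6 against 6 have 924 arrangements and a smallest p of 0.00216. Limits from counting error are Poisson limits (scipy 1.17.1). A count of 0 is bounded by 3 counts over the group, for counting error only. Folds against that bound leave out the counting error of the other group and the spread between hamsters. Depth per library is given above, and at the median pituitary total 1 count is about 12.3 CPM.

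Alternatives were DESeq2 1.42.0 size factors and its test, filterByExpr, edgeR 4, the highest isoform, leaving out Gm32262 and Lars2, shallow libraries, each replicate number, replicate number as a block, a threshold of 0.05, and, added after seeing the data, library totals without TMM, libraries without Gapdh left out and reference genes. The members and lists were chosen with earlier results of these data known. All members are named, list genes are named where they were called or held the most counts of a list in the MBH, and the 3 symbols with the highest Pearson's r are named for members past the filter. The tests were also run on simulated counts with a fixed spread and with changes in well-counted symbols only. Calls on members of few counts, such as Dio3, were therefore not checked in this way.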

Additional observations from a re-analysis of the deposited data

Results flagged for a closer look

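For the 10 pairs of member and tissue that passed the filter on low counts, the highest and the lowest hamster of each group of 6 were set against the others by Dixon's ratio of the gap to the group's range. It passed in 18 of 90 groups. The usual rate of about 1 in 20 groups by chance does not apply to counts this sparse, since a group with 5 hamsters at 0 passes whatever its other value, as in 4 groups of Thrb in the DMH. In the MBH, the Thra level was far below the rest in the hamsters numbered 2 at 8 weeks (3.65 CPM), at 20 weeks (0.0 CPM) and at 28 weeks (6.44 CPM). The 20-week library is that of 5996 counts, which was also far above the rest in Slco1c1 (37.5 CPM, from 1 count). Thrb was at 0.0 CPM in hamster 3 of 32 weeks. Ttr was far above the rest in hamster 2 of 4 weeks (26.7 CPM) and hamster 4 of 20 weeks (43 CPM).

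In the DMH, Thra was at 0.0 CPM in hamster 3 of LP. A single hamster stood far above the rest in Thrb CPM in 6 of the 8 SP groups, at 4 weeks (hamster 3, 62.0 CPM), 8 weeks (hamster 4, 0.317 CPM), 12 weeks (hamster 6, 3.33 CPM), 20 weeks (hamster 3, 4.19 CPM), 28 weeks (hamster 2, 41.6 CPM) and 32 weeks (hamster 4, 15.1 CPM). The summed Thrb counts of these 6 libraries were 42, 1, 39, 1, 21 and 42. At 4 weeks 2 other hamsters held 63 counts each, and at 28 weeks another held 42, at lower CPM.

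In the pituitary gland a single hamster likewise stood far above the rest in Thrb at 4 weeks (hamster 2, 198 CPM), 16 weeks (hamster 3, 93.3 CPM), 20 weeks (hamster 6, 527 CPM) and 24 weeks (hamster 2, 119.5 CPM), with summed counts of 24, 22, 21 and 22. Thrb has 21 isoform rows in these tables, and the part of the summing over rows in these values was not tested.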

How the results depend on the processing

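Over the 9 groups, the call of 1 member became 0 in the MBH (Dio3), the DMH (Thrb) and the pituitary gland (Thrb) with filterByExpr, where 5, 2 and 6 symbols of all were called in place of 89, 1008 and 2149. It was also 0 in all 3 with the DESeq2 test (12, 1 and 1 symbols of all). With the highest isoform in place of the sum it was 0 in the DMH and the pituitary gland (32 and 33 of all symbols). In the MBH the highest isoform called 2 members, Dio3 and Ttr, over the groups, in the pooled weeks and at single weeks (130, 115 and 108 of all symbols). That fit put the prior degrees of freedom at infinity against 7.848 for the sum, and its quasi-dispersion for Ttr was 1.07 where the gene's own value was 5.578. The edgeR 4 method gave 0 members in the DMH over the groups (34 of all symbols), and 1 member, Thrb, in the pituitary gland in the pooled weeks and at single weeks (912 and 930 of all symbols against 271 and 1). On library totals alone it was 0 members over the groups in the DMH and the pituitary gland, and 2 in the pooled weeks of the DMH, Thrb and Ttr at 12 to 20 weeks against LP (adjusted p 0.0999995 and 0.0825), where the median of all symbols moved by -0.77 on the log2 scale. DESeq2 size factors moved that median by no more than 0.06 in a contrast of pooled weeks. In the pituitary gland 0 members were called over the groups without the libraries that lack Gapdh, and 0 at a threshold of 0.05.

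With each replicate number left out, the members called over the groups ran from 0 to 0 in the MBH, from 0 to 1 in the DMH (0 without replicate 3) and from 0 to 1 in the pituitary gland (0 without replicate 6). In the pooled weeks of the pituitary gland they ran from 0 to 1 (Thrb without replicate 2), and for a different change between the MBH and the DMH from 0 to 1 (Thrb at 12 to 20 weeks without replicate 3, where 108 of all symbols were called in place of 23). The replicate numbers were not taken to pair the samples, since no label ties a number to a litter, batch or day and the correlations of libraries with 1 number, in their deviations from the group means, fell as low as -0.577 (DMH). Their means were 0.051 to 0.067 against -0.00729 to -0.0133 between numbers, and 24 to 41 of 54 libraries correlated best with their own number, a hint from the data that they share more than a number. With the replicate number as a block, 0 members were called over the groups in the MBH (22 of all symbols), and 1 in the pituitary gland in the pooled weeks and at single weeks (929 and 772 of all symbols). The block left the other calls on members as they were and called 227 of all symbols in the DMH over the groups.

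For the levels in the MBH against the DMH, Slco1c1 turned to -0.12 per Actb, Thra to -0.14 against the median of all symbols, -0.090 per Gapdh and -0.48 per Actb, and Ttr to 1.68 on library totals alone, a fit that called 14358 of 17693 symbols in place of 7427. Ttr was called as lower in the MBH with the highest isoform (-1.30), with no hamster block (-1.25) and without replicate 2 (-1.18). The cause of these changes was not tested. Leaving out libraries below 10000 counts could not be applied to the DMH and the pituitary gland, which hold none.

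Depth limits Dio3, Dio2 outside the MBH, and Crym and Thrb outside the MBH, which rest on a few counts in a library. In the PVN 14 and in the pituitary gland 37 of 54 libraries held fewer than 100000 counts.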
